A study of Mus musculus with 2 samples.

Results

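The genes described here encode 44 G protein-coupled receptors that sense lipid, purine, peptide and protease mediators released in tissue: 9 receptors for prostanoids, 4 for leukotrienes, 6 for lysophosphatidic acid, 5 for sphingosine 1-phosphate, 2 for bradykinin, 2 for endothelin, 4 cleaved by proteases, 7 for nucleotides, 4 for adenosine and 1 for bile acids. They were found by gene symbol among 36924 gene names with a probe free of purine repeats, and all 44 had at least 1 probe. Each receptor was represented by its brightest probe, taken over both arrays. The search by symbol and the brightness rule used no difference between genotypes. The list of receptors was, however, chosen with earlier results of these data known.

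RNA came from dorsal root ganglion (DRG) neurons, the sensory cell bodies that lie beside the spinal cord, of C57BL/6 mice. The samples were Dock8-/- (tcr)AND, labelled as having a high level of interleukin-31 (IL-31), and Dock8+/- (tcr)AND, labelled as having a low level of this itch-causing cytokine. DOCK8 is an activator of the small GTPase Cdc42 that works mainly in immune cells, and both genotypes carry the AND T cell receptor transgene. Each genotype had 1 single-colour array. The labels do not give the number of animals behind a sample, their age or the procedure by which neurons were isolated. The comparison asks which transcripts differ between DRG neurons of these mice.

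With 1 array a genotype there was no replicate check, so all differences below are differences between 2 arrays and carry no test, and the number of arrays limits their precision. Processed intensities were mostly lower on the Dock8-/- array, with a 75th percentile of 145.6, against 303.8 on the Dock8+/- array, and log2 values were therefore set relative to that percentile. Directions hold on this scale: scaling to spike-in transcripts moved every gene by -1.85, and all 30 receptors measured on both arrays were then lower in the Dock8-/- sample. The Dock8 probes gave no check of the labels, since 0 of 5 were well above background in the Dock8-/- sample, against 1 of 5 in the Dock8+/- sample, at an intensity of 20.5.

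These receptors pass through the membrane as a bundle of helices and act through heterotrimeric G proteins: Gs raises cyclic AMP, Gi lowers it, and Gq releases calcium from internal stores. In the DRG, prostaglandin E2, bradykinin, nucleotides and proteases sensitise nociceptors or activate them, and lysophosphatidic acid, sphingosine 1-phosphate, leukotrienes and endothelin 1 have been linked to itch or pain. Many of the same receptors also serve macrophages, mast cells, platelets, fibroblasts or vascular smooth muscle, whose RNA can enter a ganglion preparation. In bulk RNA, fewer cells of a type and less RNA per cell cannot be told apart.

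A receptor is read here through a 60-base probe, and 5 probes are shown because they carry a hallmark of the receptor family, bear on how far probes of a gene differ, or belong to the receptor with the highest difference. In the first pair, capitals mark codons of a family motif found by script in a sense reading frame without a stop codon. The Ptger3 probe, at chr3:157268044-157268103 on the plus strand, holds the NPxxY-type motif of the last helix (asparagine or aspartate, proline, any 2 residues, tyrosine). The second Lpar1 probe, at chr4:58499672-58499731 on the minus strand, holds the DRY-type motif at the inner end of the third helix (aspartate or glutamate, arginine, then an aromatic residue, histidine or cysteine). The Adora2b probe lies at chr11:62079096-62079155 on the plus strand, the second Adora1 probe at chr1:136099564-136099623 on the minus strand and the second P2ry14 probe at chr3:58919013-58919072 on the minus strand. All positions are given on mouse build mm9, as in the files. Annotation of exons and UTRs on mm9 was not used here.
Ptger3 probe: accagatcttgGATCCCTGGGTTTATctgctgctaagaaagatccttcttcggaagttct
Lpar1 second probe: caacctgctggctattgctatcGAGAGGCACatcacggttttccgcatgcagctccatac
Adora2b probe: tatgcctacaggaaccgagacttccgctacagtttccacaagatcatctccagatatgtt
Adora1 second probe: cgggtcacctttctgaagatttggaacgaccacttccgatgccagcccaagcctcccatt
P2ry14 second probe: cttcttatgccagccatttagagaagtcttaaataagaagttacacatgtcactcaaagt
Of the 63 receptor probes, 3 held an NPxxY-type and 2 a DRY-type motif in such a frame, against 0.378% and 1.26% of all 56605 non-control probes. A match is a description of the probe's letters only.

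Of the 44 receptors, 30 were measured, meaning that the brightest probe carried the well-above-background flag on both arrays. This is 68.2% of the receptors, against 50.3% of all gene names. Another 7 receptors were read on the Dock8+/- array only (15.9%, against 6.9% of all gene names), and 0 on the Dock8-/- array only (1.38% of all gene names). The remaining 7, Ptgdr2, Ltb4r2, Lpar5, S1pr4, F2rl1, F2rl3 and P2ry4, had no such flag on either array. F2rl1 encodes PAR2, the trypsin- and tryptase-cleaved receptor, and its intensity was 3.64 in the Dock8-/- sample, against 3.88 in the Dock8+/- sample. At such intensities a difference was not detectable.

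**Figure D1:**
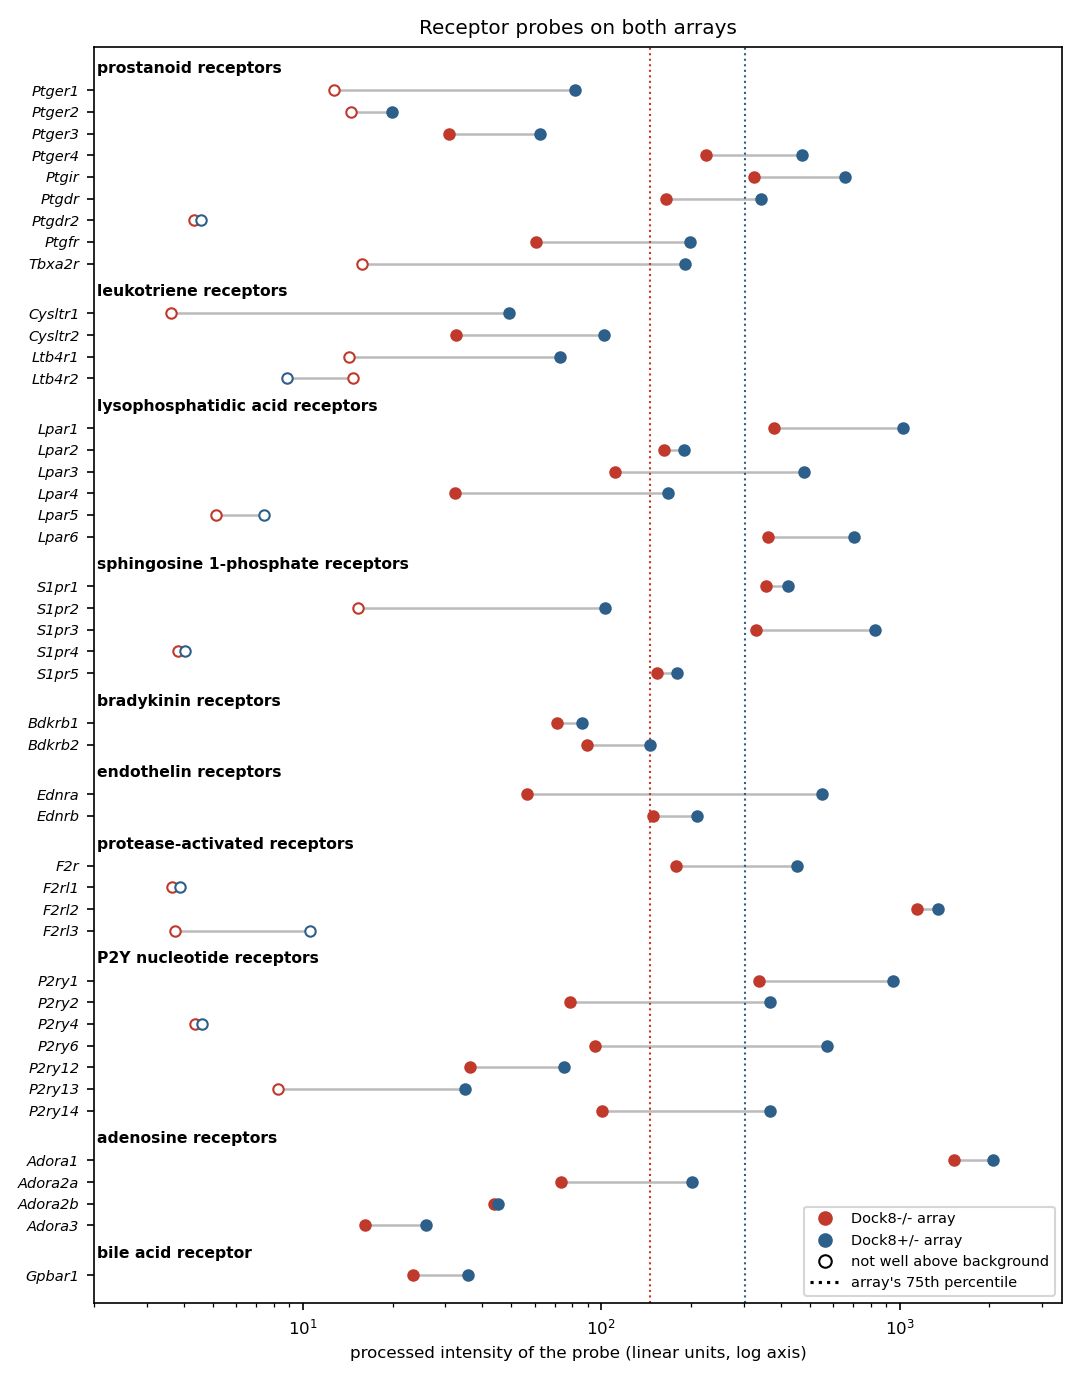
Processed intensity (linear units on a log axis) of the brightest probe of each of the 44 receptors on the Dock8-/- array (red) and the Dock8+/- array (blue), by family, with 1 array per genotype and no error bars. Open circles are probes not well above background, and dotted lines are each array's 75th percentile, 145.6 and 303.8; all 30 measured receptors have the lower intensity on the Dock8-/- array before scaling.

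The 30 measured receptors had a median log2 difference (Dock8-/- minus Dock8+/-) of 0.01, and the 18577 measured genes one of 0.02. Of the receptors 14 lay below 0 (48.4% of all measured genes did). Of the receptors, 5 were at least 2-fold lower in the Dock8-/- sample (16.7%, against 7.08% of all measured genes): Ednra, P2ry6, Lpar4, P2ry2 and Lpar3. Adora2b was the only one at least 2-fold higher (3.33%, against 8.74% of all measured genes). At 1.5-fold, 8 receptors were lower (26.7%, against 17.0% of measured genes) and 7 higher (23.3%, against 20.6%), while 15 lay within 1.5-fold. By signal, 11 receptors lay among the 6192 dimmest measured genes, with 1 at least 2-fold lower (8.32% of those genes were) and 1 higher (16.0%). Another 17 lay among the next 6192, with 4 lower (9.04% of those genes) and 0 higher (6.07%). The remaining 2 lay among the 6193 brightest, with 0 lower (3.88%) and 0 higher (4.13%).

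**Figure D2:**
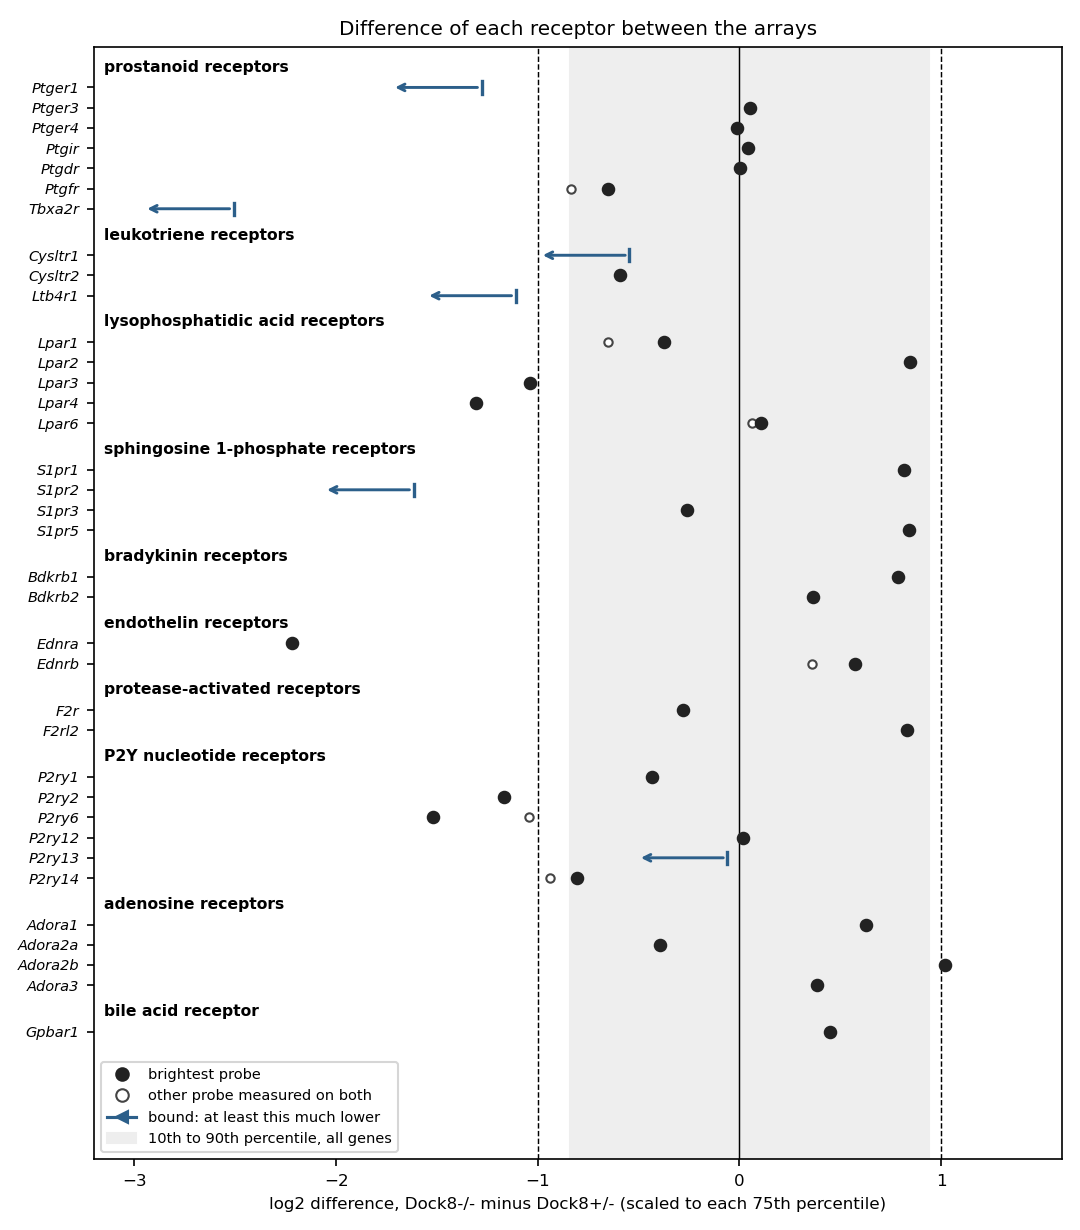
Log2 difference, Dock8-/- minus Dock8+/-, after scaling to each array's 75th percentile, for the receptors with a value or a bound, by family. Filled circles are brightest probes, open circles other probes measured on both arrays, arrows start at a bound for receptors read on the Dock8+/- array only, dashed lines mark 2-fold, and the grey band holds the 10th to 90th percentile of all measured genes; Ednra at -2.22 is the lowest measured receptor and Adora2b at 1.02 the highest.

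Of the prostanoid receptors, those for prostaglandin E2, prostacyclin and prostaglandin D2 that could be measured were close to equal on both arrays after scaling. The thromboxane receptor and the prostaglandin E2 receptors Ptger1 and Ptger2 were read in the Dock8+/- sample only. Ptger3 and Ptger4 encode the Gi-coupled EP3 and Gs-coupled EP4 receptors for prostaglandin E2. The Ptger3 probe, the only measured 1 of 4, had an intensity of 30.9 on the Dock8-/- array, against 62.2 on the Dock8+/- array, a log2 difference of 0.05. Those with 15.3 and 5.85 in Dock8-/- were read on the Dock8+/- array only, at 20.1 and 25.1, too close to background for a bound. The last had 8.89 in Dock8-/- and 5.12 in Dock8+/-, with no flag on either array. For Ptger4 the intensities were 224.1 in Dock8-/- and 470.9 in Dock8+/-, a difference of -0.01. Ptgir, the Gs-coupled prostacyclin receptor, lay at 0.04 and Ptgdr, the Gs-coupled DP1 receptor for prostaglandin D2, at 0.00. These 4 receptors stayed between -0.22 and 0.35 under all alternatives other than spike-in scaling, and a second Ptger4 probe, read on the Dock8+/- array only, was at least 1.19-fold lower in the Dock8-/- sample. Ptgfr, the Gq-coupled receptor for prostaglandin F2 alpha, was 1.57-fold lower, with 60.5 in Dock8-/- and 198.6 in Dock8+/-, and its second probe had a difference of -0.84. On normexp-corrected intensities its difference was -0.30.

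Tbxa2r encodes the Gq-coupled thromboxane receptor of platelets and vascular smooth muscle. Its intensity was 15.8 on the Dock8-/- array, not well above background, and 191.2 on the Dock8+/- array. Such a receptor has only a bound. The Dock8+/- value is set against the dim value in Dock8-/-, or against that array's detection floor (the lowest signal called well above background) where the floor is higher. By this measure Tbxa2r was at least 5.69-fold lower in the Dock8-/- sample. Ptger1, the Gq-coupled EP1 receptor, had 12.8 on the Dock8-/- array, against 81.6 on the Dock8+/- array, and was at least 2.43-fold lower. Ptger2, the Gs-coupled EP2 receptor, had 14.6 in Dock8-/- and 20.0 in Dock8+/-, too close to background for a bound. In all, 4 of the 7 receptors read on the Dock8+/- array only had a bound of at least 2-fold lower, as did 17.4% of the 2546 such genes. Normexp correction reduced the bounds to 1.71-fold for Tbxa2r and 1.02-fold for Ptger1.

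Of the leukotriene receptors, 1 was measured and 2 were read on the Dock8+/- array only, so that their bounds could point in no other direction than lower in the Dock8-/- sample. Cysltr2 encodes a Gq-coupled receptor for cysteinyl leukotrienes that sensory neurons are known to express. It had 32.5 on the Dock8-/- array, against 102.3 on the Dock8+/- array, a log2 difference of -0.59, which was -0.03 after normexp correction. Cysltr1, the other cysteinyl leukotriene receptor, had 3.62 in Dock8-/- and 49.1 in Dock8+/- and was at least 1.46-fold lower. Ltb4r1, the high-affinity receptor for leukotriene B4 on leukocytes, had 14.3 in Dock8-/- and 72.6 in Dock8+/- and was at least 2.16-fold lower. Neither Cysltr1 nor Ltb4r1 had a bound after normexp correction.

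The lysophosphatidic acid receptors split in the Dock8-/- sample, with Lpar3 and Lpar4 lower and Lpar2 higher through 1 of its 2 probes. Lpar4, on the X chromosome, encodes a receptor of the purinergic-like branch, and its intensity was 32.4 on the Dock8-/- array, against 167.0 on the Dock8+/- array, 2.47-fold lower. Lpar3, of the branch closest to the sphingosine 1-phosphate receptors, had 111.7 in Dock8-/- and 478.6 in Dock8+/-, a log2 difference of -1.04. Both rest on 1 probe and lay within 2-fold after normexp correction, at -0.47 for Lpar4 and -0.84 for Lpar3. Lpar2 was 1.79-fold higher on the scaled values, with 162.6 in Dock8-/- and 189.1 in Dock8+/-, through a probe named by a cDNA clone. The other Lpar2 probe was at background on both arrays, at 6.10 in Dock8-/- and 7.07 in Dock8+/-, so the value rests on the clone's probe alone. That probe was not screened for repeats other than purine repeats, so whether it reads Lpar2 transcripts only is not known. Lpar1, the receptor linked to nerve injury pain and to myelinating glia, had 379.1 in Dock8-/- and 1024 in Dock8+/-, a difference of -0.37. The Lpar1 probe printed above lay at -0.65. Lpar6 lay at 0.11, and its second probe at 0.06.

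Among sphingosine 1-phosphate receptors, S1pr1 and S1pr5 were higher and S1pr2 lower in the Dock8-/- sample, relative to the 75th percentile. S1pr1, the Gi-coupled receptor that guides lymphocyte egress and is abundant in endothelium and astrocytes, had 358.0 on the Dock8-/- array, against 424.1 on the Dock8+/- array, and was 1.76-fold higher. S1pr5, known from oligodendrocytes and natural killer cells, had 154.4 in Dock8-/- and 179.7 in Dock8+/- and was 1.79-fold higher. On the spike-in scale both were lower. S1pr2, which couples to several G proteins, had 15.3 in Dock8-/-, not well above background, and 103.1 in Dock8+/-, at least 3.06-fold lower, or 1.26-fold after normexp correction. S1pr3, the receptor linked to itch and heat pain in mouse sensory neurons, lay at -0.26, with 330.2 in Dock8-/- and 825.8 in Dock8+/-.

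Both bradykinin receptors were higher on the scaled values by less than 2-fold. Bdkrb1, the receptor induced in injured tissue, had an intensity of 71.2 on the Dock8-/- array, against 86.2 on the Dock8+/- array, a log2 difference of 0.79. Bdkrb2, the constitutive receptor of nociceptors, had 89.8 in Dock8-/- and 145.8 in Dock8+/-, a difference of 0.36. The other Bdkrb2 probe was at background on both arrays, at 3.63 in Dock8-/- and 5.17 in Dock8+/-.

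The endothelin receptors lay on opposite sides of 0. Ednra, the Gq-coupled ETA receptor of vascular smooth muscle and nociceptors, had 56.5 on the Dock8-/- array, against 549.1 on the Dock8+/- array, a log2 difference of -2.22. It stayed at least 2-fold lower in all 10 alternatives without spike-in scaling, between -2.28 and -1.58. The other filters and probe rules among them could not move it, since only 1 probe was measured. The probe lies at chr8:80186985-80187044 on the minus strand, and the other Ednra probe was at background on both arrays, at 4.37 in Dock8-/- and 4.62 in Dock8+/-. Ednrb, the ETB receptor of satellite glia and endothelium, had 149.6 in Dock8-/- and 209.6 in Dock8+/-, a difference of 0.58, and 0.36 on its second probe.

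Protease-activated receptors are cut by proteases at their outer end, which exposes a ligand tethered to the receptor. F2rl2 encodes PAR3, which is prominent in sensory neurons, and its intensity of 1144 on the Dock8-/- array, against 1343 on the Dock8+/- array, gave a scaled value 1.78-fold higher in the Dock8-/- sample. F2r, the thrombin receptor PAR1, lay at -0.28, with 178.6 in Dock8-/- and 452.2 in Dock8+/-.

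P2Y receptors respond to extracellular nucleotides, and in this family 4 of the 5 measured members lay below 0 (48.4% of all measured genes did). P2ry6, the Gq-coupled receptor for UDP known from macrophages and microglia, had 95.4 on the Dock8-/- array, against 571.1 on the Dock8+/- array, and was 2.87-fold lower. Its second probe was also at least 2-fold lower, at -1.04. The receptor stayed at least 2-fold lower in all 10 alternatives without spike-in scaling, between -1.56 and -1.09. The other filters and the repeat rule among them left its value unchanged. P2ry2, the Gq-coupled receptor for ATP and UTP, had 78.7 in Dock8-/- and 369.2 in Dock8+/-, 2.25-fold lower, with a difference of -0.76 after normexp correction. P2ry14, the Gi-coupled receptor for UDP-glucose, had 101.0 in Dock8-/- and 368.1 in Dock8+/-, a log2 difference of -0.80. Its second probe, printed above, lay at -0.94.

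The other P2Y receptors differed less. P2ry1, the ADP receptor linked to touch and heat responses of sensory neurons, lay at -0.43, with 337.2 in Dock8-/- and 949.4 in Dock8+/-. P2ry12, the ADP receptor of platelets and microglia, lay at 0.02. P2ry13, another ADP receptor of myeloid cells, had 8.24 in Dock8-/- and 35.0 in Dock8+/-, at least 1.04-fold lower.

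Adenosine receptors had 3 of 4 members above 0 on the percentile scale, where 48.4% of all measured genes lay below 0. Adora2b, the low-affinity Gs-coupled receptor, had 43.9 on the Dock8-/- array, against 45.1 on the Dock8+/- array. The unscaled intensities were thus close to equal, and scaling placed the receptor 2.03-fold higher in the Dock8-/- sample. This difference of 1.02 was 0.75 after loess, 0.78 after normexp correction and 0.86 after quantile normalisation, and -0.83 on the spike-in scale. Adora1, the Gi-coupled receptor through which adenosine damps pain, had 1519 in Dock8-/- and 2050.5 in Dock8+/- and was 1.55-fold higher. Its second probe, printed above, pointed the other way: it had 6.51 in Dock8-/-, not well above background, and 44.9 in Dock8+/-, at least 1.34-fold lower. Adora2a lay at -0.39. Adora3 lay at 0.38, but its intensity in Dock8-/- was 16.1, at that array's detection floor, against 25.8 in Dock8+/-. After loess Adora3 lay at -0.005. Gpbar1, the Gs-coupled bile acid receptor TGR5 linked to itch, lay at 0.45, with 23.5 in Dock8-/- and 35.8 in Dock8+/-.

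**Figure D3:**
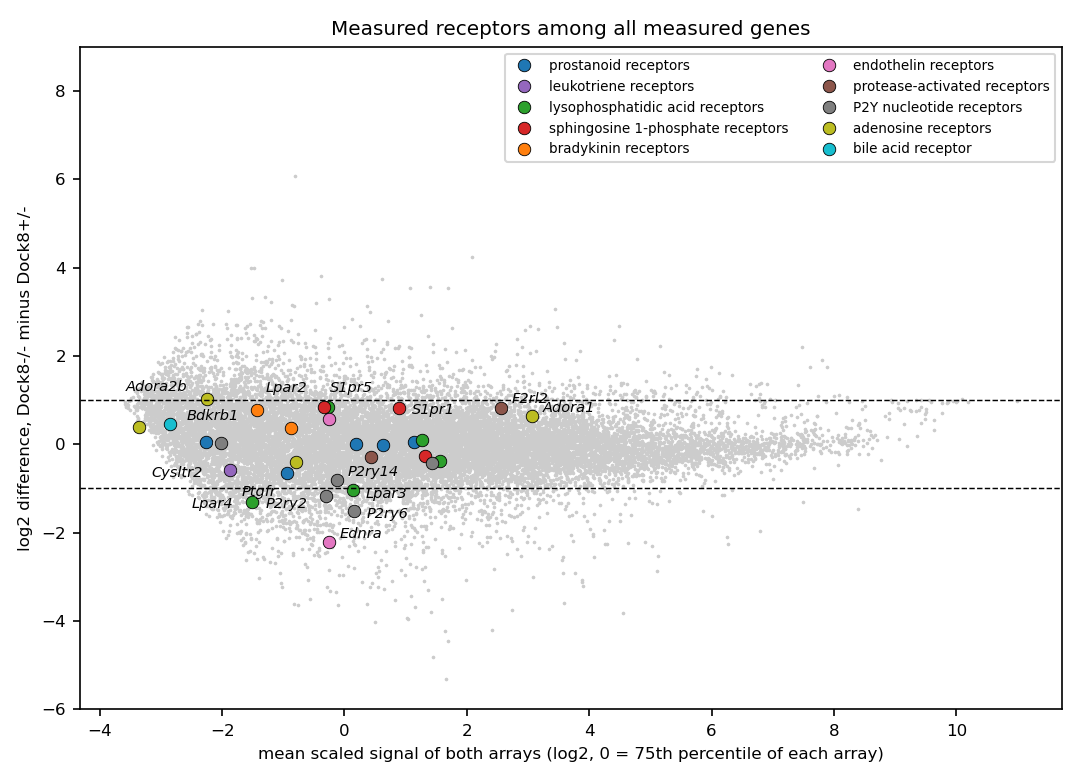
Log2 difference (Dock8-/- minus Dock8+/-) against the mean scaled log2 signal of both arrays for 18577 measured genes (grey) and the 30 measured receptors (coloured by family; names given from 1.5-fold). Dashed lines mark 2-fold; the grey cloud widens at low signal, 28 of the 30 receptors lie below the brightest 6193 genes, and 5 receptors lie under the lower line and 1 above the upper.

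Grouped by main G protein, the 9 measured Gq-coupled receptors had a median log2 difference of -0.59, with 3 at least 2-fold lower, beside 7.08% of all measured genes. That median is the value of Cysltr2, which was -0.03 after normexp correction. P2ry2, 1 of the 3, was then within 2-fold, at -0.76. The 6 measured Gs-coupled receptors had a median of 0.02 and the 6 Gi-coupled ones of 0.22, beside 0.02 for all measured genes. The Gq class held Ednra, P2ry6 and P2ry2 at its low end and Bdkrb1 at its high end, so its members ranged from -2.22 to 0.79. The classes were drawn up by hand, do not exclude receptors with a second coupling, and leave the other receptors out.

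Markers of other cell types differed between the arrays along with these receptors. Of all measured genes, 7.08% were at least 2-fold lower and 8.74% higher, the shares to set beside each marker count. All 11 macrophage markers were below 0 and 10 were at least 2-fold lower in the Dock8-/- sample, with a summed scaled intensity of 42.1, against 158.1 in Dock8+/-, each in units of the array's 75th percentile. All 8 measured fibroblast markers were below 0 and 7 were at least 2-fold lower, with sums of 292.3 in Dock8-/- and 989.5 in Dock8+/-. The remaining fibroblast marker, Dpt, was read on the Dock8+/- array only. The part of macrophages or fibroblasts in the lower values of P2ry6, P2ry13, Cysltr1, Ltb4r1, Lpar3 and Lpar4 was not tested.

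Of 9 measured mural and smooth muscle markers, 2 were at least 2-fold lower (Cnn1 at -2.77 and Cspg4 at -1.52), with sums of 39.6 in Dock8-/- and 60.8 in Dock8+/- and a median of -0.56. Acta2, the smooth muscle actin, lay at -0.43 and Myh11, the smooth muscle myosin, at 0.28. Of 5 platelet and megakaryocyte markers, only Pf4 was measured, at -4.45, with sums of 0.904 in Dock8-/- and 15.4 in Dock8+/-. Ppbp and Gp1bb were read on the Dock8+/- array only, with no bound of 2-fold, and Itga2b and Gp9 lacked the flag on both arrays. Of 6 mast cell markers, the proteases Cpa3, Mcpt4 and Cma1 were read on the Dock8+/- array only, all 3 with bounds of at least 2-fold lower, while Kit lay at 0.03, Tpsb2 at -0.35 and Fcer1a lacked the flag on both arrays. The mast cell sums were 2.33 in Dock8-/- and 8.23 in Dock8+/-. The part of these cells in the lower values of Ednra, Tbxa2r and P2ry2 was not tested.

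Other lists moved to different degrees, beside 7.08% of all measured genes at least 2-fold lower and 8.74% higher. Both measured skeletal muscle markers were at least 2-fold lower (Tnnt3 at -4.02 and Tnnc2 at -3.94), 3 of 6 were read on the Dock8+/- array only with bounds of at least 2-fold lower, and the sums were 1.104 in Dock8-/- and 21.5 in Dock8+/-. Of 7 Schwann cell markers, 1 was at least 2-fold higher and 1 lower, with sums of 632.2 in Dock8-/- and 730.2 in Dock8+/-. Of 6 measured endothelial markers, 0 were at least 2-fold apart, 2 more were detected in Dock8+/- alone, and sums were 32.7 in Dock8-/- and 39.4 in Dock8+/-. Of 7 neutrophil markers, 2 were at least 2-fold higher and 0 lower, with sums of 42.4 in Dock8-/- and 34.8 in Dock8+/-. The part of these cells in the receptor values was not tested.

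Sensory neuron markers were close to balanced, with a median of -0.01 over 14 genes. Of 5 astrocyte and spinal cord markers, 4 were higher by 2-fold or more, with sums of 59.9 in Dock8-/- and 15.6 in Dock8+/-. Of 7 satellite glia markers, 3 were at least 2-fold higher and 1 lower, with sums of 763.1 in Dock8-/- and 551.2 in Dock8+/-. The part of glia in the higher values of S1pr1, S1pr5, Ednrb, Adora2b and the clone's Lpar2 probe was not tested.

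Genes that make or clear the mediators were read in the same way. For prostanoids, 4 of 11 measured genes were at least 2-fold lower in the Dock8-/- sample (7.08% of all measured genes) and 0 higher (8.74%). The median was -0.42. Pla2g4a, the phospholipase that frees arachidonic acid, had 51.4 on the Dock8-/- array, against 579.0 on the Dock8+/- array, a difference of -2.43. Tbxas1, thromboxane synthase, lay at -2.02, with 23.8 in Dock8-/- and 201.0 in Dock8+/-. Slco2a1, the prostaglandin uptake transporter, lay at -1.62 and Hpgd, the enzyme that inactivates prostaglandins, at -1.53. Ptgs2, the inducible cyclooxygenase, was read on the Dock8+/- array only and was at least 2.27-fold lower, whereas Ptgs1, the constitutive one, lay at 0.53. The thromboxane receptor, given above, was also lower, but through a bound that could point in no other direction. Macrophage markers were lower too, and their part in these values was not tested. Ptgds, the lipocalin-type prostaglandin D synthase, lay at 0.56.

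For leukotrienes, 1 of 4 measured synthesis genes was at least 2-fold lower (7.08% of all measured genes). This was Alox5, the 5-lipoxygenase of myeloid cells, with 25.3 in Dock8-/- and 234.7 in Dock8+/-, a difference of -2.15. Its partner Alox5ap lay at -0.67 and Ltc4s, which makes leukotriene C4, at 0.65. For lysophospholipids, 1 of 10 measured genes was at least 2-fold higher (8.74% of all measured genes) and 0 lower (7.08%). Spns2, the sphingosine 1-phosphate exporter, was this gene, with 951.1 in Dock8-/- and 621.8 in Dock8+/-, a difference of 1.67. Its intensity was higher in Dock8-/- before scaling too. Enpp2, autotaxin, which makes lysophosphatidic acid, lay at 0.72.

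Of the genes that form or break down kinins, 3 of 5 measured were at least 2-fold lower (7.08% of all measured genes) and 1 higher (8.74%). Xpnpep2, an aminopeptidase that degrades bradykinin, lay at -2.12, with 24.1 in Dock8-/- and 219.8 in Dock8+/-. Kng1, the kininogen, lay at -1.45 and Ace, the angiotensin-converting enzyme that also degrades bradykinin, at -1.12. Cpm, the carboxypeptidase that makes the Bdkrb1 ligands, had 257.8 in Dock8-/- and 118.3 in Dock8+/-, a difference of 2.19. Of 4 measured endothelin genes, 1 was at least 2-fold higher (8.74% of all measured genes) and 0 lower (7.08%). Edn1, endothelin 1 itself, was this gene, with 34.6 in Dock8-/- and 29.4 in Dock8+/-, a difference of 1.30. It lay opposite to Ednra.

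Of 7 measured genes for receptor-cleaving proteases and their inhibitors, 1 was at least 2-fold higher (8.74% of all measured genes) and 1 lower (7.08%). Klk6, a protease that can cut protease-activated receptors and is known from myelinating glia, had 567.9 in Dock8-/- and 261.8 in Dock8+/-, a difference of 2.18. Astrocyte and spinal cord markers, given above, were also higher, and the part of such cells in the Klk6 value was not tested. Klk8 lay at -1.33, with 18.7 in Dock8-/- and 98.1 in Dock8+/-. Of 12 genes of purine release and turnover, 2 were at least 2-fold higher (8.74% of all measured genes) and 2 lower (7.08%). Nt5e (CD73), which turns AMP into adenosine in nociceptors, lay at 1.30 and Slc17a9, the vesicular nucleotide transporter, at 1.37. Entpd2, the ATP-hydrolysing enzyme of glia, lay at -1.48 and Alpl, tissue-nonspecific alkaline phosphatase, at -2.92. Of the ligand-side genes given as at least 2-fold higher, Cpm and Klk6 stayed above 0 on the spike-in scale, while Spns2, Edn1, Nt5e and Slc17a9 lay below it.

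**Figure D4:**
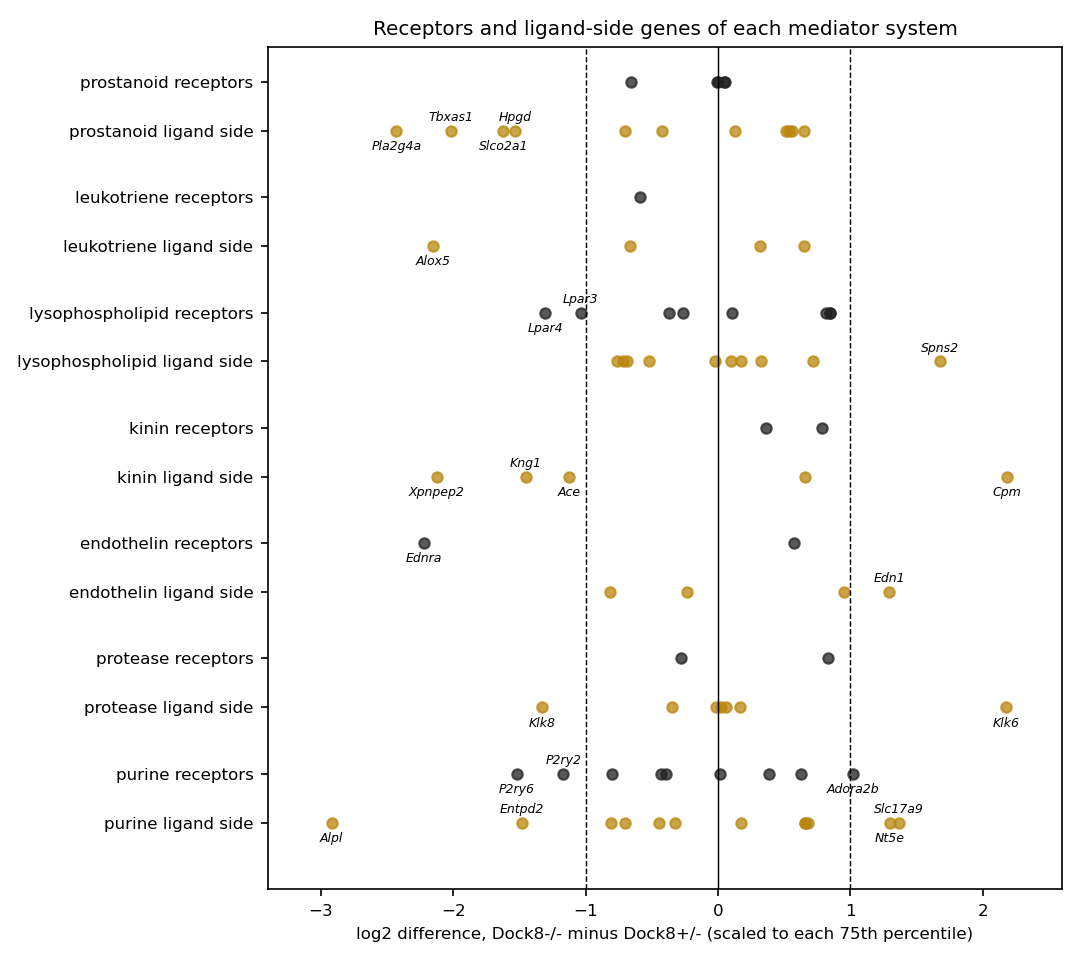
Log2 difference (Dock8-/- minus Dock8+/-, scaled to each 75th percentile) of each measured receptor (dark) and each measured gene for making, releasing or clearing its mediator (gold), by system, with dashed lines at 2-fold and names beyond them. Of the 5 measured prostanoid receptors 4 lie near 0 and Ptgfr at -0.65, Pla2g4a lies at -2.43, receptors with only a bound (Tbxa2r and Ptger1 among them) are not drawn, and Ednra at -2.22 lies opposite Edn1 at 1.30.

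The spread to set these values against could be measured only partly. Among 298 probes with 10 spots, the SD between single spots (root mean square) was 0.0463 on the Dock8-/- array, against 0.0435 on the Dock8+/- array, so a difference of single spots has an SD of 0.0635 on the log2 scale from spot error alone. Nearly all of these probes (297) had an intensity of at least 150 on the Dock8-/- array, as did 13 of the 30 measured receptors, and spot error of the dimmer receptors was not measured. All receptor probes had 1 spot each. In the 6 receptors with 2 measured probes both had the same sign, and the gap between probes was widest for P2ry6, at -1.52 and -1.04. None of this covers differences between animals or preparations, and 24 of the 30 measured receptors rest on 1 measured probe, 17 of them because the array holds no other.

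**Figure D5:**
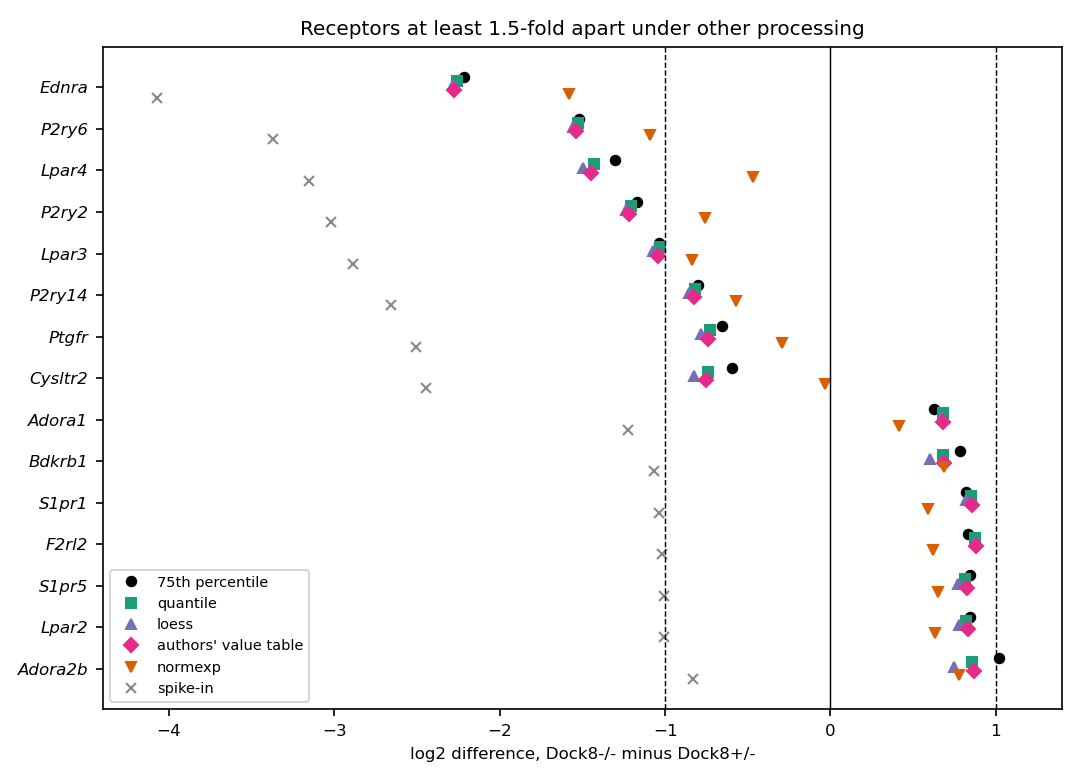
Log2 difference (Dock8-/- minus Dock8+/-) of the 15 receptors at least 1.5-fold apart under the 75th percentile scaling and 5 other kinds of processing, with dashed lines at 2-fold. Ednra and P2ry6 stay beyond the lower line in all of them, normexp correction brings Lpar4 to -0.47, and spike-in scaling puts all 15 below 0.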

How the data were processed

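Cy3-labelled cRNA from 1 Dock8-/- and 1 Dock8+/- sample was hybridised to arrays of one slide. The deposited scanner files give the linear intensity of each spot, which the authors obtained from Agilent Feature Extraction (version 10.7.1.1 per the file headers, 9.5.1.1 per the submitters' processing notes). The authors' deposited value table holds linear intensity too, found to be quantile normalised: 98.9% of sorted values were equal in both columns (tolerance 0), each with a median of 27.9, and across probes it correlated with the scanner intensities (log2, r of at least 0.999). Direction and scale follow from this, no centring was seen, and 0 of its columns were unused.

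Processed intensity was put on the log2 scale, averaged over spots and set relative to each array's 75th percentile over non-control probes. Spots flagged as non-uniform (1 in Dock8-/-, 3 in Dock8+/-) were dropped, and 0 were saturated. The flag for signal well above background held for 50.7% of non-control probes in Dock8-/- and 56.9% in Dock8+/-, down to intensities of 16.1 in Dock8-/- and 17.4 in Dock8+/-. Purine repeats, meaning 4 or more GA or GAA units in a row, excluded 192 probes. Probes were not screened for other repeats. A RefSeq table of GRCm38.p6 served for names only: 32994 probes were named by accession, 10224 by symbol and 520 by older symbol, and 12867 kept the file's name. Of the 63 receptor probes, 54 were named by accession and 0 disagreed.

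With 1 array per group there is no test, and 2-fold serves as a description of size. Receptors at least 1.5-fold apart, or with such a bound, are given with their values and the others by family. Genes outside the receptors are named from 2-fold, at most 4 per list, and any other was chosen after its values were seen. The value of 1 sensory neuron marker is not reported here. The receptors and the lists were chosen with earlier results of these data known. Alternatives were other scalings, quantile normalisation, loess (span 0.3), normexp (offset 50), the value table, other filters and other probe rules. The code was tested on simulated data. R 4.3.3 with limma 3.58.1 and Python 3.11.15 were used.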

Additional observations from a re-analysis of the deposited data

How the results depend on the processing

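Of the 30 measured receptors, 5 were at least 2-fold lower (7.08% of all measured genes) and 1 higher (8.74%), with a median of 0.01. The count of higher receptors was 0 with quantile normalisation (7.40% of all genes were higher), loess (6.58%), spike-in scaling (0.124%), normexp correction (3.41%) and the authors' value table (7.48%). The median was -0.061 with quantile normalisation, -0.13 with loess and -0.061 with the value table. Normexp correction left 2 lower receptors (4.66% of all genes were lower), Ednra and P2ry6. Spike-in scaling, which rests on 8 probes, gave 29 lower receptors (87.7% of all genes) and a median of -1.84, beside -1.83 for all genes, and Adora2b alone remained within 2-fold, at -0.83. Without a filter on dim probes 2 of 44 were higher (14.5% of all genes) and 11 lower (7.49%), and with the alternative detection flag 2 of 38 were higher (13.7%) and 10 lower (8.57%). At 1.5-fold there were 7 higher (20.6% of measured genes) and 8 lower (17.0%). The share of all genes at 3-fold was not computed, so the 3-fold counts (0 higher and 1 lower) have nothing to be read against. The other scalings to detected probes, the mean of a gene's probes and probes with repeats gave 1 higher and 5 lower. Normexp correction here adds 50 to every intensity, which by construction narrows the unscaled ratio between arrays for dim probes. Otherwise, why the values moved was not tested. No paired analysis was possible because there was a single array per genotype, which also left no replicate to leave out. Dim probes limit the reading: 14 of 44 receptors lacked a value on at least 1 array.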

Other observations

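Several of the receptor genes lie within 300 kb of another in the genome (mm9 probe positions). Whether other genes lie between them was not checked. P2ry2 and P2ry6 lie 59.4 kb apart on chromosome 7, and both were at least 2-fold lower in the Dock8-/- sample, at -1.17 and -1.52. On chromosome 3, P2ry12 lies 8.54 kb from P2ry13 and 102 kb from P2ry14, but P2ry12 lay at 0.02 and P2ry14 at -0.80. On chromosome 13, F2r lies 99.9 kb from F2rl2, with differences of -0.28 and 0.83. On chromosome 14, Cysltr2 lies 210 kb from Lpar6, with differences of -0.59 and 0.11. S1pr2, at least 3.06-fold lower by its bound, lies 277 kb from S1pr5, at 0.84, on chromosome 9. Bdkrb1 and Bdkrb2, 9.58 kb apart on chromosome 12, lay at 0.79 and 0.36. Neighbours thus lay on the same side of 0 in some pairs and on opposite sides in others.

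The kinases and arrestins that switch off such receptors stayed within 2-fold. Of 7 measured genes, 0 were at least 2-fold apart (7.08% of all measured genes were lower and 8.74% higher), with a median of -0.03. Grk3 had the highest difference, at 0.88, with an intensity of 334.8 in Dock8-/- and 378.4 in Dock8+/-, and Grk5 the lowest, at -0.46. Arrb1 lay at 0.12 and Arrb2 at -0.09.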
